A study of Mus musculus with 4 samples.

Results

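Ribosomal protein genes encode the protein part of the cytosolic ribosome. They were followed here across 4 mouse kidney cortex arrays that crossed diabetes with loss of ICAM-1, an adhesion molecule that leukocytes use to leave the blood. The genes were taken by symbol from the platform's probe annotation: every symbol that starts with Rpl or Rps followed by a digit, plus Rpsa, Rplp0, Rplp1 and Rplp2, without the ribosomal S6 kinases. This gave 59 genes with 1 probe each, 39 of the large subunit and 20 of the small subunit, among 9900 features on the array. A feature was a gene, with its probes averaged, or a probe without a single symbol.

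All animals were male mice of the C57BL/6J background, aged 20 weeks at death. Wild-type mice (ICAM-1+/+, WT) and ICAM-1-/- mice (KO, a purchased germline line whose allele the labels do not name) were injected into the peritoneum at 8 weeks of age. Diabetic groups (DM-WT and DM-KO) received 200 mg/kg of streptozotocin, a toxin of pancreatic beta cells, and nondiabetic groups (ND-WT and ND-KO) received citrate buffer. The cortex was taken 12 weeks later. Each group had 5 mice but only 1 array, and whether its RNA was pooled or came from a single mouse is not said in the labels. A difference between 2 arrays therefore has no replicate check, and each value below is that of 1 array. ND and DM in parentheses mark the nondiabetic and the diabetic array of a genotype.

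A ribosome is built from ribosomal RNA and, with few exceptions, a single copy of each of its many proteins. Their mRNAs are among the most abundant of the cell, and most begin with a C followed by a run of pyrimidines, the TOP motif, through which the mTOR kinase controls their translation. In the kidney, growth of tubule cells in early diabetes is accompanied by more ribosomes, and phosphorylation of Rps6 by the S6 kinases is a common readout of mTOR activity. Arrays of this kind see the mRNA level only, not translation.

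Part of this shared control is written around the transcription start. In RefSeq promoter entries on GRCm38.p6, 49 of the 59 genes had an entry, and a run of at least 8 C or T on the transcribed strand, within 20 bases before to 30 bases after the start, stood in 26 of these 49 (53.1%). The same run stood in 21.5% of 27025 genes with an entry, and a run of at least 8 A or G in the same window stood in 6.12% of the ribosomal protein genes against 24.7% of all. The motif CCGGAAG, searched on both strands over the 300 bases of each entry, was present in 21 of the 49 (42.9%), against 9.93% of all genes with an entry. It is a core that factors of the Ets family bind. These are matches of letters, not mapped binding sites. The windows of 6 genes on which the results turn are shown from 30 bases before to 20 bases after the annotated start, 5′ to 3′ on the transcribed strand, and capitals mark runs of at least 8 C or T.
Rpl38, chr11:114668550-114668599, plus strand: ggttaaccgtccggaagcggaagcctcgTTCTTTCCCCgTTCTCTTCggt
Rpl31, chr1:39367821-39367870, plus strand: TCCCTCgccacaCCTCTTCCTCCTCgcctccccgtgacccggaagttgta
Rpsa, chr9:120127736-120127785, plus strand: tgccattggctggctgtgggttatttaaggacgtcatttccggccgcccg
Rplp0, chr5:115559437-115559486, plus strand: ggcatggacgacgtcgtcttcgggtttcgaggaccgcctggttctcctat
Rps27, chr3:90213629-90213678, minus strand: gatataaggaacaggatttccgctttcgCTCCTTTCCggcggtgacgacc
Rps27l, chr9:66946056-66946105, plus strand, the first of 2 entries: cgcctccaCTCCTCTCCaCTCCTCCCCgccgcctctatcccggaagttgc
Rpl38, Rpl31, Rps27 and Rps27l hold such a run in the window shown, and Rpsa and Rplp0 hold none. The marked runs of Rpl31 and Rps27l end before the annotated start, while Rpl38 and Rps27 have a run across it. Shorter runs are not marked, so the marks do not show which mRNAs carry the TOP motif. The first run of Rpl31 continues upstream of its window. Rps27 and Rps27l, a pair of paralogs, are shown together because their values differed in direction.

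The DM-WT array stood apart from the others before any gene was considered. Usable spots made up 62.8% of the 10032 gene probes on DM-WT and 64.8% to 66.2% on the other arrays, and its median background-subtracted intensity was 37.7 against 43.5 to 46.3. Bacterial control transcripts, added to the RNA at labelling, stood on DM-WT at 0.562 of their ND-WT level, while the KO arrays had 1.27 (ND) and 1.21 (DM) of it. Repeated spots of 1 bacterial probe had an SD of 0.11 on the log2 scale within an array, so a difference of 2 single spots carries an SD of 0.156 from spotting and reading alone. The tissue label held for tubules: all 10 proximal tubule markers on the array were measured on every array, while of 3 podocyte markers only Wt1 was above background, on 1 array, and none of 4 adrenal markers was. Icam1 was not analysed here.

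The ribosomal protein genes were nearly flat over the 4 arrays, about as flat as all genes measured there. Of the 59, 54 were measured on all 4 arrays, meaning that each spot was usable. For these, the gap between the highest and the lowest array had a median of 0.17 on the log2 scale, from 0.03 for Rpl29 to 0.55 for Rplp0, and it was under 25% (0.32 on the log2 scale, the higher array over the lower) for 43 of 54 (79.6%). Rpl29 was dim, with background-subtracted intensities of 40.6 to 49.8. Among all genes measured on all arrays the median gap was 0.18 and 80.9% were under 25%. Among 974 other genes with a mean log2 level of at least 9, the range in which most ribosomal protein genes lie, the median gap was 0.22 and 71.7% were under 25%. Array pairs correlated at 0.996 to 0.998 over 58 of the ribosomal protein genes, and at 0.982 to 0.995 over all genes, which are not independent replicates.

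**Figure D1:**
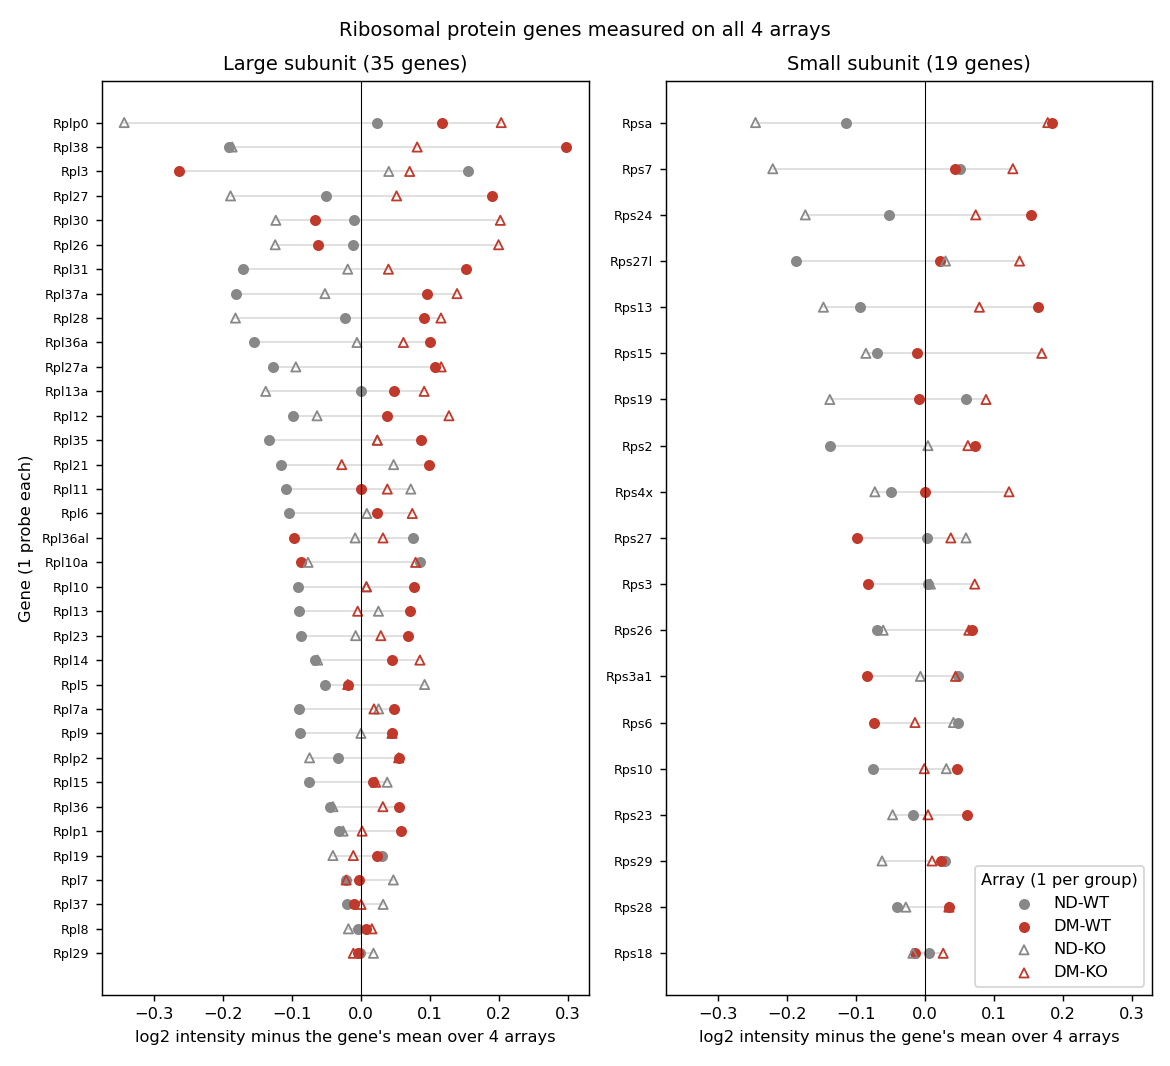
Log2 intensity of each of the 54 ribosomal protein genes measured on all 4 arrays, given as the distance from that gene's mean over the arrays, with the large subunit on the left and the small subunit on the right. Each symbol is 1 array (grey nondiabetic, red diabetic; filled WT, open KO), and genes are ordered by their range. Rplp0, Rpl38 and Rpl3 spread most, and nondiabetic arrays hold most of the lowest values on this quantile-normalized scale. The same count was not made over all genes.

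The order of the arrays was uneven. Among the 54 genes, the highest value lay on DM-WT for 22, on DM-KO for 18, and on ND-WT and ND-KO for 7 each. The lowest value lay on ND-WT for 26, on ND-KO for 19, on DM-WT for 7 and on DM-KO for 2. The diabetic arrays thus held most of the highest and few of the lowest values of these 54 genes in the quantile-normalized data. The order was counted under that normalization only. It was not counted over all genes, so whether it is particular to the ribosomal protein genes was not tested.

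The first comparison asked how diabetes altered these genes with ICAM-1 intact. On DM-WT against ND-WT, 55 genes were measured on both arrays, of which 39 were higher and 16 lower. Their median log2 difference was 0.09, against 0.00 over all 6055 genes measured on both arrays, with an SD over the ribosomal protein genes of 0.15. A gene counts as at least 25% lower where the other array was at least 25% above it. At least 25% higher were 2 of 55, Rpl38 and Rpl31, and 1 of 55, Rpl3, was at least 25% lower. The background was 5.38% of all genes at least 25% higher and 4.19% at least 25% lower, so the shares of 3.64% and 1.82% lie below it. None reached 1.5-fold, where the background was 1.75% higher and 0.875% lower. With each array scaled by its median in place of quantile normalization, the median turned to -0.11 for the ribosomal protein genes, 12 of 55 of them higher, and to -0.08 for all genes. In the deposited series value table it was -0.01, with 26 of 55 higher, against -0.06. In a bulk sample, more cells of a type and more RNA per cell cannot be told apart.

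The genes farthest from 0 in WT were large subunit genes. Rpl38, whose loss in mice disturbs the body plan through the translation of Hox mRNAs, had log2 intensities of 10.69 (ND) and 11.18 (DM) in WT and 10.70 (ND) and 10.96 (DM) in KO. Both diabetic arrays were above both nondiabetic arrays, by 0.49 in WT (1.4-fold) and 0.27 in KO. Rpl31, a protein at the exit of the nascent peptide tunnel, had 10.08 (ND) and 10.41 (DM) in WT and 10.24 (ND) and 10.29 (DM) in KO. It was lowest on ND-WT, and its difference was 0.32 in WT and 0.06 in KO. Rpl3, which lies close to the catalytic centre, had 10.53 (ND) and 10.11 (DM) in WT and 10.41 (ND) and 10.44 (DM) in KO. DM-WT alone was low, at -0.42 against ND-WT.

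The position of the spots is given here beside these values. Rpl38 and Rpl3 were printed among the 6 ribosomal protein genes in columns 44 to 48 at the edge of the upper block. Of 239 genes measured there, 10.5% were at least 25% lower with diabetes in WT and 4.18% at least 25% higher, against 4.59% and 4.80% of 2832 in the other columns of that block. The others there were Rpl27a at 0.24, Rpl19 at -0.01, Rps3 at -0.09 and Rps20, which was not above background. Without these columns on any array, 50 genes remained measured in WT, none was at least 25% higher or lower, and the median was 0.08. The part of position in the values of Rpl38 and Rpl3 was not tested.

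The next genes in WT were Rpsa at 0.30, Rpl37a at 0.28 and Rps13 at 0.26 above, and Rpl36al and Rpl10a at -0.17, Rps3a1 at -0.13 and Rps6 at -0.12 below. Rpl36al is a paralog of Rpl36a, which itself stood at 0.26. Rps6, the substrate of the S6 kinases, had 11.45 (ND) and 11.33 (DM) in WT and 11.44 (ND) and 11.38 (DM) in KO. It was lower on the diabetic array in both genotypes, by less than the SD of a difference of 2 spots.

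**Figure D2:**
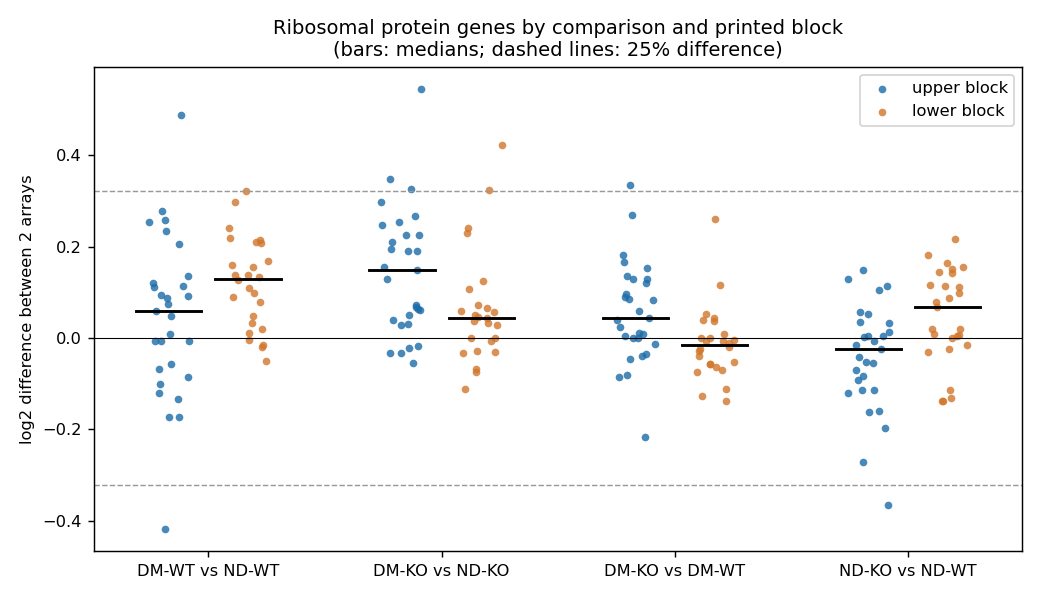
Log2 difference between 2 arrays for each ribosomal protein gene measured on both, in the 4 comparisons, split by printed block (blue upper, orange lower); bars are medians and dashed lines mark 25%. In WT diabetes the medians are 0.06 (upper) and 0.13 (lower), and in KO diabetes 0.15 and 0.04; the WT medians are on quantile-normalized values, and the median over both blocks turns below 0 with median scaling or in the deposited value table.

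The second comparison asked the same without ICAM-1. On DM-KO against ND-KO, 40 of 54 genes were higher and 14 lower, with a median log2 difference of 0.06 against -0.01 over all 6339 genes. At least 25% higher were 5 of 54: Rplp0, Rpsa, Rps7, Rpl30 and Rpl26. None was at least 25% lower. The background was 2.81% of all genes higher and 1.96% lower at 25%, and 0.536% higher and 0.505% lower at 1.5-fold, which none of the 54 reached. The 5 genes are 9.26% of those measured, but 2 of 54 (3.70%) passed with median scaling and 3 of 54 (5.56%) in the deposited value table, where all genes had 2.43% and 6.47%. The median was 0.01 with median scaling and -0.02 in the deposited value table, where all genes stood at -0.02 and -0.05.

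Rplp0, the base of the stalk that recruits translation factors and a common reference gene for PCR, had the widest range of all 54. Its log2 intensity was 12.12 (ND) and 12.21 (DM) in WT and 11.75 (ND) and 12.30 (DM) in KO. ND-KO alone was low, so the gene stood 0.55 higher (1.46-fold) with diabetes in KO and 0.37 lower on ND-KO than on ND-WT, while the diabetes difference in WT was 0.09. Over the 10 other settings the KO diabetes difference ran from 0.37 to 0.55.

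Rpsa, a small subunit protein also known as the precursor of the laminin receptor, had 9.82 (ND) and 10.11 (DM) in WT and 9.69 (ND) and 10.11 (DM) in KO. Both diabetic arrays lay above both nondiabetic ones, by 0.30 in WT and 0.42 in KO, and both differences were above 0 under each of the 10 other settings. Rps7, a small subunit protein needed for ribosomal RNA maturation, had 9.32 (ND) and 9.32 (DM) in WT and 9.05 (ND) and 9.40 (DM) in KO. As for Rplp0, ND-KO was its low array. Rpl30 had 11.10 (ND) and 11.04 (DM) in WT and 10.98 (ND) and 11.31 (DM) in KO, and Rpl26, which also binds the mRNA of p53, had 7.88 (ND) and 7.83 (DM) in WT and 7.77 (ND) and 8.09 (DM) in KO. For both, DM-KO was the high array and ND-KO lay 0.11 below ND-WT. The lowest differences in KO were small: Rpl5 at -0.11, Rpl21 at -0.08, Rpl7 at -0.07, Rps6 at -0.06 and Rpl11 at -0.03.

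The diabetes differences of the 2 genotypes share no array. Of the 54 genes measured on all arrays, 28 were higher with diabetes in both genotypes and 3 lower in both (Rpl29, Rps6 and Rps27). Another 11 were higher in WT and lower in KO, and 12 the reverse. Among all 5914 genes, 1694 were higher in both genotypes and 1843 lower in both. A further 1249 were higher in WT and lower in KO, and 1127 the reverse. These counts are for quantile-normalized values. With median scaling, 12 of 55 ribosomal protein genes were above 0 in WT and 29 of 54 in KO. From the deposited series values, 26 of 55 were above 0 in WT and 25 of 54 in KO. Across the 54 ribosomal protein genes the 2 quantile-normalized differences correlated at r = 0.19 (Spearman 0.16). Across all 5914 genes they correlated at r = 0.48 (Spearman 0.35). The points of each axis share a pair of arrays. Rpsa was the 1 gene among the 5 highest of both genotypes.

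**Figure D3:**
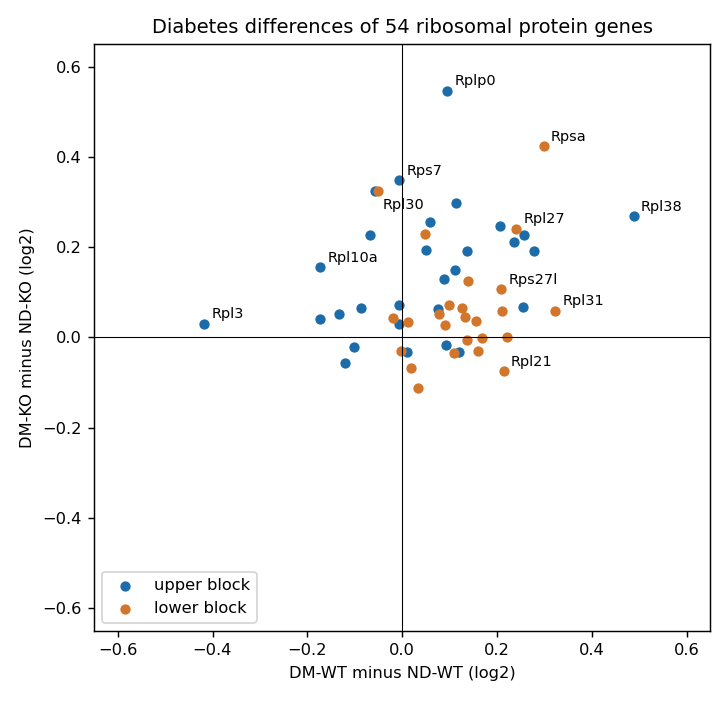
Diabetes difference in WT (horizontal) against that in KO (vertical), both as log2 differences of quantile-normalized intensity, for 54 ribosomal protein genes coloured by printed block. Rpsa and Rpl38 are high on both axes, Rplp0 is high in KO only, Rpl3 is low in WT only, and the cloud has r = 0.19; with median scaling most genes move left of 0 in WT.

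A test over all 4 arrays was possible with limma, in a fit of diabetes and genotype as additive effects with 1 residual degree of freedom per gene. Of the 59 genes, 57 entered it. After Benjamini-Hochberg adjustment over all 6512 genes fitted, none of the 57 passed 0.05 for diabetes, against a background of 0.0154% of all genes higher and 0% lower. At an unadjusted p under 0.05, 7 of 57 were higher with diabetes (12.3%, against 6.83% of all genes) and 0 of 57 were lower (against 5.94%). They were Rpsa, Rpl38, Rpl27, Rps13, Rps24, Rpl27a and Rpl37a. Rpsa had an estimate of 0.36 (SE 0.068) and an adjusted p of 0.213, and Rpl38 had 0.38 (SE 0.081) and an adjusted p of 0.235. The other 5 had estimates of 0.22 to 0.24 and adjusted p-values of 0.273 to 0.297.

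The other 5 stood as follows in each genotype. Rpl27 stood at 0.24 in both, Rps13 at 0.26 and 0.23, Rps24 at 0.21 and 0.25, Rpl27a at 0.24 and 0.21, and Rpl37a at 0.28 and 0.19, in WT and KO. Rps24 is among the genes mutated in Diamond-Blackfan anaemia, and Rpl37a is a zinc finger protein of the large subunit. With median scaling, 5 of the 7 were above 0 in WT and all 7 in KO. In each of the other settings, those among them that were measured stood above 0 in both genotypes. The 7 genes were picked by their unadjusted p in these same arrays, which favours differences that are large and alike in both genotypes. Their agreement between genotypes and across settings is therefore no separate check.

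Loss of ICAM-1 was compared next, in diabetic and in nondiabetic mice. On DM-KO against DM-WT the median over 55 genes was 0.00, with 27 higher and 24 lower, against -0.01 over all genes. This even split depended on the scaling: with median scaling 50 of 55 were higher (median 0.10, all genes 0.04), and 17 of 55 were higher in the deposited value table (median -0.05, all genes -0.02). At least 25% higher was 1 of 55, Rpl3 at 0.33, for which DM-WT was the low array, and none was lower. The background was 3.08% higher and 3.98% lower at 25%, and 0.769% and 1.06% at 1.5-fold, which no ribosomal protein gene reached. After Rpl3 came Rpl30 at 0.27, Rpl26 at 0.26, Rps15 at 0.18 and Rpl10a at 0.17. At the low end were Rpl38 at -0.22, Rpl27 at -0.14, Rpl21 at -0.13, Rpl31 at -0.11 and Rps13 at -0.08.

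On ND-KO against ND-WT the median over 56 genes was 0.00, with 31 higher and 25 lower, against 0.00 over all genes. With median scaling 26 were higher (median -0.02), and 24 were in the value table (median -0.04). None was at least 25% higher (background 1.63%), and 1 of 56, Rplp0 at -0.37, was at least 25% lower (background 2%). At 1.5-fold the background was 0.176% higher and 0.447% lower, and none of the 56 reached it. Rps7 at -0.27 and Rps19, the gene most often mutated in Diamond-Blackfan anaemia, at -0.20 came next. Rps19 had 11.73 (ND) and 11.67 (DM) in WT and 11.54 (ND) and 11.76 (DM) in KO, so ND-KO was its low array as well. The highest were Rps27l at 0.22, Rpl11 at 0.18, Rpl21 at 0.16, Rpl35 at 0.16 and Rpl31 at 0.15. In limma, none of 57 passed for genotype after adjustment over all genes (background 0.0307% higher and 0.0154% lower), and the lowest adjusted p was 0.557. At an unadjusted p under 0.05 there was also none of 57, against 4.41% of all genes higher and 4.68% lower.

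The effect of diabetes in KO minus that in WT has no test here, because a fit with that term leaves no residual degrees of freedom. The values were highest for Rplp0 (0.45), Rpl3 (0.45) and Rpl30 (0.38), and lowest for Rpl21 (-0.29), Rpl31 (-0.26) and Rpl35 (-0.22). The high end held genes of the upper printed block and the low end genes of the lower block.

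Printed block moved with these values throughout. The array has an upper block, with 30 of the genes, and a lower block, with 29. With diabetes in WT the medians were 0.06 in the upper and 0.13 in the lower block. In KO they were 0.15 and 0.04, the opposite order. The genotype difference in diabetic mice was 0.04 in the upper and -0.01 in the lower block, and in nondiabetic mice it was -0.02 and 0.07. All genes split the same way by a smaller amount, with -0.01 and 0.01 for WT diabetes and 0.02 and -0.03 for KO diabetes. The other genes with a mean log2 level of at least 9 stood at -0.03 and 0.05 for WT diabetes and at 0.04 and -0.05 for KO diabetes. With each block of each array centred on its own median, an alternative added after seeing the data, the medians over both blocks were 0.09 in WT and 0.06 in KO. The diabetes medians of the ribosomal protein genes were thus above 0 in each block in both genotypes on the quantile-normalized scale. The part of the block in single gene values was not tested.

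**Figure D4:**
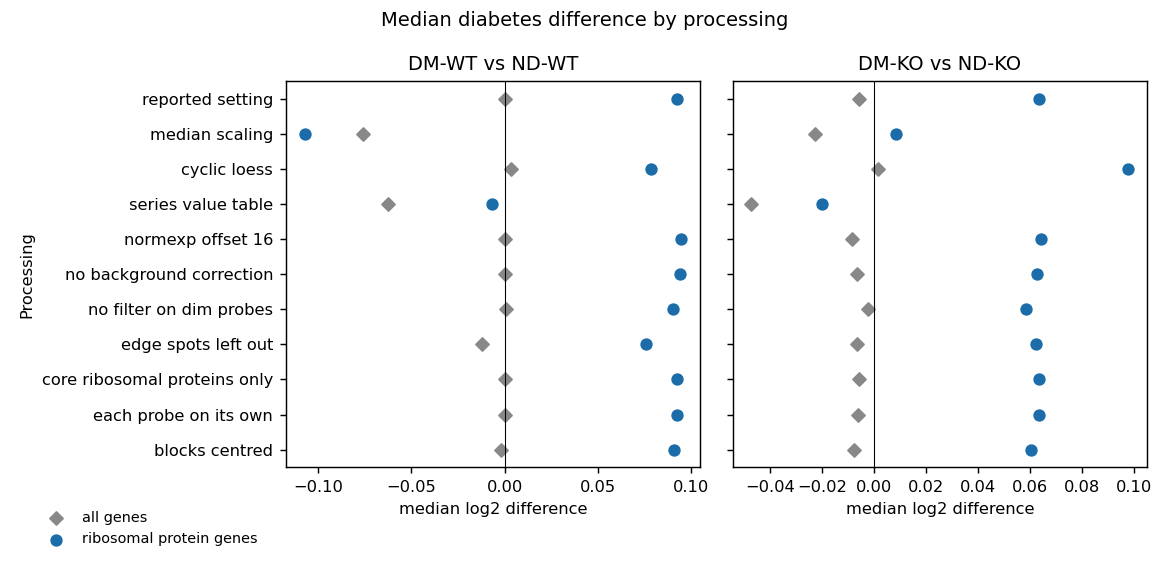
Median log2 diabetes difference of the ribosomal protein genes (blue) and of all genes (grey diamonds) under the reported setting and 10 others, in WT on the left and KO on the right. The WT median is -0.11 with median scaling and -0.01 in the deposited value table and between 0.08 and 0.10 elsewhere; the KO median is -0.02 in the value table and between 0.01 and 0.10 elsewhere.

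By subunit, the large subunit genes had medians of 0.10 in WT and 0.05 in KO with diabetes, and the small subunit genes 0.06 and 0.07. Among small subunit genes 11 of 19 were higher in WT and 16 of 19 in KO. Among large subunit genes 28 of 36 were higher in WT and 24 of 35 in KO. The SD over genes within a subunit was 0.13 to 0.16, and the difference between subunits was not tested.

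The other stalk proteins were flatter than Rplp0. Rplp2, which pairs with Rplp1 on the base formed by Rplp0, had 11.34 (ND) and 11.43 (DM) in WT and 11.30 (ND) and 11.43 (DM) in KO. Rplp1 lay between 6.23 and 6.32 on all arrays, close to the dim end of the scale. With diabetes in WT the 3 stalk genes stood at 0.09 each. In KO they stood at 0.55 for Rplp0, 0.13 for Rplp2 and 0.03 for Rplp1, so the low ND-KO value of Rplp0 had no counterpart of its size in the other stalk genes.

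Rpl5 and Rpl11 travel with a small ribosomal RNA before assembly and, when free, bind the p53 regulator Mdm2. Rpl5 had 11.50 (ND) and 11.53 (DM) in WT and 11.64 (ND) and 11.53 (DM) in KO, and Rpl11 had 11.39 (ND) and 11.50 (DM) in WT and 11.57 (ND) and 11.54 (DM) in KO. For both, ND-WT was lowest and ND-KO highest, and their diabetes differences were 0.03 and 0.11 in WT and -0.11 and -0.03 in KO.

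Paralogs gave a mixed picture. Rps4x, the X-linked gene of its protein, stood at 0.05 in WT and 0.19 in KO with diabetes, and Rpl36al at -0.17 and 0.04. Rps27l, a paralog of Rps27 known as a p53 target, had 10.99 (ND) and 11.20 (DM) in WT and 11.21 (ND) and 11.31 (DM) in KO. It was lowest on ND-WT and stood above 0 in each of the 4 comparisons and under each of the 9 other settings that include it. Rps27 had 11.37 (ND) and 11.27 (DM) in WT and 11.43 (ND) and 11.41 (DM) in KO, with diabetes differences of -0.10 in WT and -0.02 in KO against 0.21 and 0.11 for Rps27l. Neither gene passed limma for diabetes (adjusted p = 0.445 for Rps27l and 0.741 for Rps27). A list of p53 targets, chosen with earlier results of these data known, had medians of 0.47 in WT and 0.32 in KO. At least 25% higher were 11 of its 15 measured genes in WT and 7 of 14 in KO, against 5.38% and 2.81% of all genes. In limma, 0 of 17 tested passed for diabetes after adjustment over all genes. At an unadjusted p under 0.05, 12 of 17 were higher, against 6.83% of all genes.

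Some paralogs were dim. Rpl3l, the striated muscle paralog of Rpl3, and Rpl22l1, the paralog of Rpl22, were above background only on ND-WT and ND-KO. Rpl39l, known from testis, was above background only on DM-WT and ND-KO. Their background-subtracted intensities ran from 14.9 to 24.8 on all arrays, so which arrays pass the mark rests on a few intensity units. Rps20 was above background on none, at 7.6 to 15.4. Rpl4, which lines the peptide tunnel, had a spot of poor quality on ND-KO and stood at -0.02 in WT diabetes.

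Fau and Rps27a encode ribosomal proteins made as fusions with a ubiquitin-like protein or ubiquitin, and they are outside the 59 because of their symbol or because they were named only through a transcript accession. Fau had 10.49 (ND) and 10.77 (DM) in WT and 10.46 (ND) and 10.62 (DM) in KO, higher with diabetes by 0.28 in WT and 0.16 in KO. Rps27a stood at 0.01 and 0.03.

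Other parts of the translation machinery were set beside the ribosomal proteins by the same measures. The 51 genes of the mitochondrial ribosome, a separate assembly whose proteins are also coded in the nucleus, had medians of 0.01 in WT (48 measured) and -0.02 in KO (49 measured), and none differed by 25% in any comparison. Mrps6 stood highest by the mean of both genotypes, at 0.18 and 0.24, and Mrps5 lowest, at -0.17 and -0.09. Initiation factors had medians of -0.01 and 0.05, and elongation and termination factors -0.04 and 0.01. Among the latter, Eef1a1, which brings tRNA to the ribosome, stood at 0.00 and 0.13. Non-ribosomal genes with TOP mRNAs had 0.04 and 0.00, from Pabpc1, the poly(A) binding protein, at -0.27 in WT to Fau. Ribosome biogenesis genes had -0.04 and -0.02, with Nhp2, a protein of the guide RNA particles that modify ribosomal RNA, lowest by the mean of both genotypes at -0.24 and -0.40. The tRNA synthetases had -0.03 and -0.02.

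The S6 kinase and mTOR list had medians of 0.03 in WT and 0.02 in KO. Mtor, the kinase itself, had 8.02 (ND) and 7.50 (DM) in WT and 7.80 (ND) and 7.39 (DM) in KO, and both diabetic arrays were low. Its differences were -0.52 and -0.41, with an adjusted p of 0.163 in limma. Ddit4, an inhibitor of mTOR signalling, stood at 0.52 in WT and 0.00 in KO, and Eif4ebp1, the repressor of cap-dependent translation that mTOR phosphorylates, at 0.28 and 0.13. No gene of these translation lists passed limma for diabetes after adjustment over all genes. At an unadjusted p under 0.05, 6.83% of all genes were higher and 5.94% lower. The S6 kinase and mTOR list had 2 higher and 1 lower of 15 tested. The mitochondrial ribosome had 2 higher of 49 (4.08%), the TOP list 2 higher of 19 (10.5%) and the biogenesis list 1 lower of 42 (2.38%). The initiation, elongation and synthetase lists had none.

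**Figure D5:**
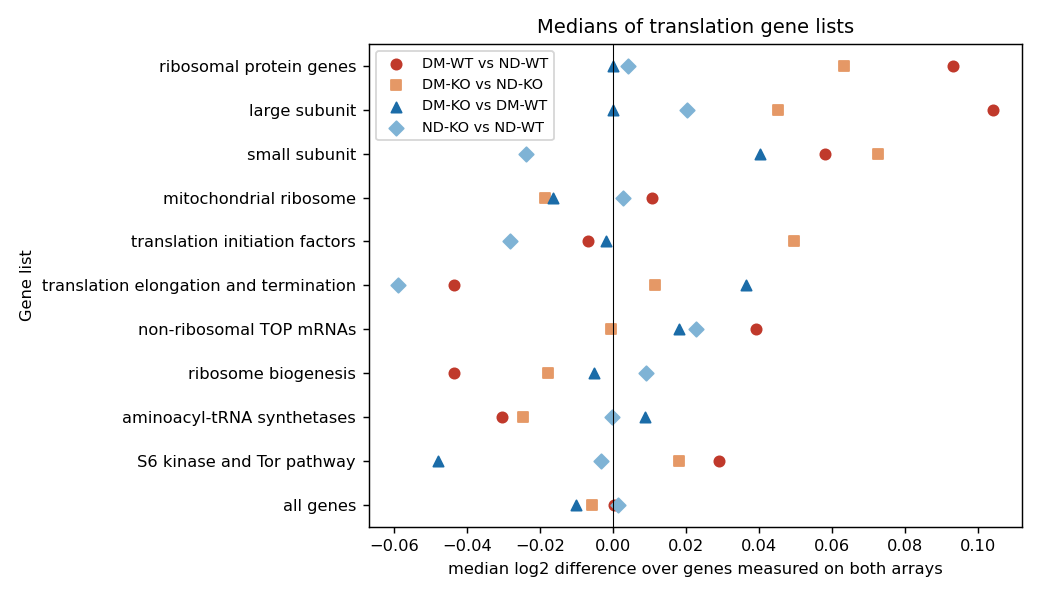
Median log2 difference of each translation gene list in the 4 comparisons, over the genes measured on both arrays, with all genes at the bottom. Ribosomal protein genes stand at 0.09 (WT) and 0.06 (KO) with diabetes and at 0.00 in both genotype comparisons; the WT value turns to -0.11 with median scaling and -0.01 in the deposited value table, and the KO value to -0.02 in that table. The DM-KO against DM-WT value turns to 0.10 with median scaling and -0.05 in the table, and the ND-KO against ND-WT value to -0.02 and -0.04.

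Markers of several cell types differed between nondiabetic and diabetic arrays, beside these small values. Whether cell numbers changed was not tested. Macrophage and monocyte markers had medians of 0.84 in WT and 0.36 in KO over 6 of 8 measured genes, and all 6 were higher in both genotypes. Proximal tubule markers had -0.10 and -0.17 over 10 genes, from -0.71 for Kap to 0.25 for Gatm in WT. Of these 10, 4 were higher and 6 lower in WT, and 1 was higher and 9 lower in KO. Thick limb and distal tubule markers had 0.61 in WT, with 4 of 4 higher, and 0.34 in KO, with 3 of 4 higher. Collecting duct markers had 0.08 in WT and 0.18 in KO, with 3 of 3 higher in KO. Endothelial markers had 0.02 and -0.05 over 4 genes, and lymphocyte and plasma cell markers 0.13 and 0.13 over 5. The part of cell make-up in the values of the ribosomal protein genes was not tested.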

How the data were processed

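Biotin-labelled cRNA of renal cortex was read on 4 CodeLink arrays, 1 per group, per the labels. The authors' deposited scanner tables hold, per the file headers, a mean intensity per spot and a local background median, both linear and unscaled, with marks for usable, empty and poor spots. The deposited series value table equals that intensity minus background divided by 1 constant per array, for 99.98% of compared probes within 0.1%; the rule for the constant is not given in the sources used here.

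Here the intensities were background-corrected (normexp, offset 50), converted to log2 and quantile-normalized with limma 3.58.1 in R 4.3.3. Poor spots were set to missing, and a difference needed a usable spot on both arrays. The 4 arrays limit the precision. The residual of the additive fit is the disagreement between the diabetes differences of WT and KO, which limma moderates across genes. It is not a spread between replicates. A low p-value for diabetes thus marks a difference that was large and alike in both genotypes. The KO minus WT difference was -1e-04 for Rpl27 and 0.45 for Rplp0, and this difference has no SE here. The moderated SE of the additive diabetes estimate was 0.061 for Rpl27 and 0.126 for Rplp0. The SE of Rpl27 is below the SD of repeated spots within an array (0.11). The additive limma fit took 6512 genes with no missing value that were usable on at least 2 arrays, so Rpl4 and Rps20 were not tested. Benjamini-Hochberg adjustment ran over all of them. The fit was tested on simulated data with changes of 1 or 2 on the log2 scale, larger than any difference of a ribosomal protein gene here. The simulation does not show what the fit finds at the sizes reported. Genes were named by rank: the 5 highest and lowest of each comparison, the 3 highest and lowest differences of differences, the 5 lowest p-values per direction, the stalk, Mdm2-binding, fusion and paralog genes, edge genes and genes not measured on an array. Some genes that this rule names are not reported here. Mouse has many processed copies of these genes, and a probe may also read those. The genes and lists were chosen with earlier results of these data known. Alternatives were median scaling, cyclic loess, the value table, a normexp offset of 16, spot means without correction, no dim filter, edge columns left out, core proteins only, single probes, a limma intensity trend, no covariate and, after seeing the data, centred blocks.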

Additional observations from a re-analysis of the deposited data

Results flagged for a closer look

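Rpl10a, a large subunit protein, stood on opposite sides of 0 with diabetes in the 2 genotypes, each time by more than the SD of repeated spots within an array (0.11). A difference of 2 spots has an SD of 0.156, which the KO value does not exceed. Its log2 intensity was 11.37 (ND) and 11.19 (DM) in WT and 11.20 (ND) and 11.36 (DM) in KO, so it was -0.17 in WT and 0.16 in KO, and the KO difference minus the WT difference was 0.33. The difference between genotypes was not tested, since each group has 1 array. Over the other settings the WT value ran from -0.33 to -0.13 and the KO value from 0.11 to 0.23.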

How the results depend on the processing

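Of the medians and counts under other settings, 129 stayed within the spot SD or 1.5 times, and 15 moved. This tally is no measure of stability. The largest reported median, 0.0929, is below the spot SD of 0.11, so a median could fall to 0 and still count as unmoved. The DM-KO against DM-WT median of 0.0989 with median scaling, against 0 as reported, is among the 129. So are the limma counts, which were 0 under every setting. Among the 129 are the medians of -0.0065 in WT and -0.0201 in KO in the deposited value table, whose sign turned. With median scaling the WT diabetes median was -0.1074 (all genes -0.0759), and the genes at least 25% apart were 0 higher and 3 lower in WT, 2 higher in KO, and 3 higher on DM-KO against DM-WT. All genes then split 3.39% higher and 10.4% lower in WT, against 5.38% and 4.19%. In the deposited value table the counts were 1 higher in WT, 3 higher in KO, 1 lower on DM-KO against DM-WT and 2 lower on ND-KO against ND-WT. Cyclic loess left 1 higher in WT. With edge columns left out there were 0 higher and 0 lower in WT and 0 higher on DM-KO against DM-WT. With blocks centred, added after seeing the data, there was 1 higher in WT and 0 higher on DM-KO against DM-WT. Leaving out edge columns takes out Rpl38 and Rpl3, and Rpl31, which is printed elsewhere, stood at 0.30 in place of 0.32. The cause of the other moves was not tested.

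No ribosomal protein gene passed limma under any setting run, and the lowest adjusted p was 0.093, for diabetes with edge columns left out. Among all genes fitted, 95 passed for diabetes and 12 for genotype there, with 52 ribosomal protein genes tested. With median scaling 82 and 14 of all genes passed, with 57 ribosomal protein genes tested. In the reported setting 1 and 3 of all genes passed. No paired analysis was possible because the labels give no replicate numbers and each group has 1 array. No array could be left out, since each is its group. Dim genes such as Rps20, Rpl3l, Rpl39l and Rpl22l1 are limited by signal over background.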
